A study of Homo sapiens with 6 samples.

Results

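The mRNA levels of 10 genes of mitochondrial fusion, fission and mitophagy were examined in a human kidney tubular cell line with and without an adenovirus for SIRT4. The genes were OPA1, MFN1, MFN2, OMA1, YME1L1, DNM1L, MFF, FIS1, PINK1 and FUNDC1. They were chosen by symbol from general knowledge of these processes, with earlier results of these data known. Each symbol matched 1 row among the 38100 genes of the deposited tables. All 10 genes had enough counts for a test, with 624 to 16729 counts per library. None of the 10 genes passed the test for a difference between the groups, in any fit that was run.

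Mitochondria fuse and divide continuously. The outer membranes are joined by the GTPases MFN1 and MFN2 and the inner membranes by the GTPase OPA1, whose long and short forms are set by the inner membrane proteases OMA1 and YME1L1. Division is carried out by the GTPase DNM1L, also called DRP1, which is recruited to the outer membrane by adaptors such as MFF. Damaged mitochondria are removed by mitophagy, which is started by the kinase PINK1 or by receptors of the outer membrane such as FUNDC1. Tubular cells of the kidney are rich in mitochondria, and SIRT4 is a sirtuin known chiefly from the mitochondrial matrix. Many of these proteins are controlled by cleavage, phosphorylation or turnover, which RNA sequencing does not measure.

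HK2 cells, an immortalized line of human proximal tubular epithelial cells with the genotype labelled WT, received a control adenovirus without an insert (AdCtrl+TGF, 3 samples) or an adenovirus for SIRT4 (AdSirt4+TGF, 3 samples), here called AdCtrl and AdSirt4. Both groups were stimulated with TGF-β1, so the series holds no unstimulated or uninfected cells, and the comparison asks how SIRT4 overexpression altered expression in stimulated cells. The study describes its repeats in vitro as technical replicates, and if this covers the sequenced samples the SDs and p-values measure technical spread. Poly-A RNA was sequenced in bulk, so fewer cells of a type and less RNA per cell cannot be told apart.

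Total counts lay between 41537353 and 85684748 per library. SIRT4, the overexpressed gene, had 31, 47 and 57 counts in the AdCtrl libraries and 1996, 7995 and 6827 counts in the AdSirt4 libraries, a log2 fold change of 6.36 (SE 0.357, adjusted p = 0.00801, edgeR). Of 8 epithelial markers 7 reached 1 CPM on average, among them KRT8 (861 CPM) and PAX8 (235 CPM), but CDH1 did not. Of 12 markers of differentiated proximal tubule only GGT1 and SLC5A2 did, and LRP2, CUBN, AQP1 and HNF4A stayed under 1 CPM, so the labelled cell type rests on epithelial rather than on mature tubular genes. Of the other cell types, 0 of 5 endothelial, 1 of 5 leukocyte (CD14), 2 of 6 fibroblast (COL1A1 and LUM) and 2 of 4 podocyte markers reached that level. The summed epithelial markers lay between 1590 and 1630 CPM in AdCtrl and between 1510 and 2110 CPM in AdSirt4, and the summed podocyte markers between 74.2 and 75.6 CPM and between 51.7 and 86.0 CPM. Their part in the results was not tested.

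One library stood apart. AdSirt4 replicate 1 differed from the other AdSirt4 libraries by a chi-square per gene of 191 and 237, while all other pairs within a group lay between 9.97 and 24.7. Its counts moved with transcript length, as described below, and results that rest on it are given with and without it.

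The level of each gene is given as TMM-normalized CPM, the count per library total after a size correction between libraries. Fold changes are AdSirt4 over AdCtrl on the log2 scale, from edgeR's quasi-likelihood test with p-values adjusted over all 17720 genes tested by the Benjamini-Hochberg method and a threshold of 0.05. In the fit of all 6 libraries, 0 of the 10 genes passed, beside 2 of all tested genes (0.0113%). An unadjusted p under 0.05 was reached by 0 of the 10 genes, beside 1406 tested genes (7.93%). DESeq2 also called 0 of them, beside 206 tested genes (1.16%), and gave none an unadjusted p under 0.05, beside 9.24% of tested genes. With the replicate number as a block, 0 of the 10 genes passed either threshold, beside 0.00564% of tested genes for the adjusted and 7.20% for the unadjusted p. Of the 10 log2 fold changes from all libraries, 7 lay above 0 and 3 below, with a median of 0.06, while the median over all tested genes was 0.02. When AdSirt4 replicate 1 was left out, 3 lay above 0 and 7 below, with a median of -0.03, beside -0.00284 over all tested genes.

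**Figure D1:**
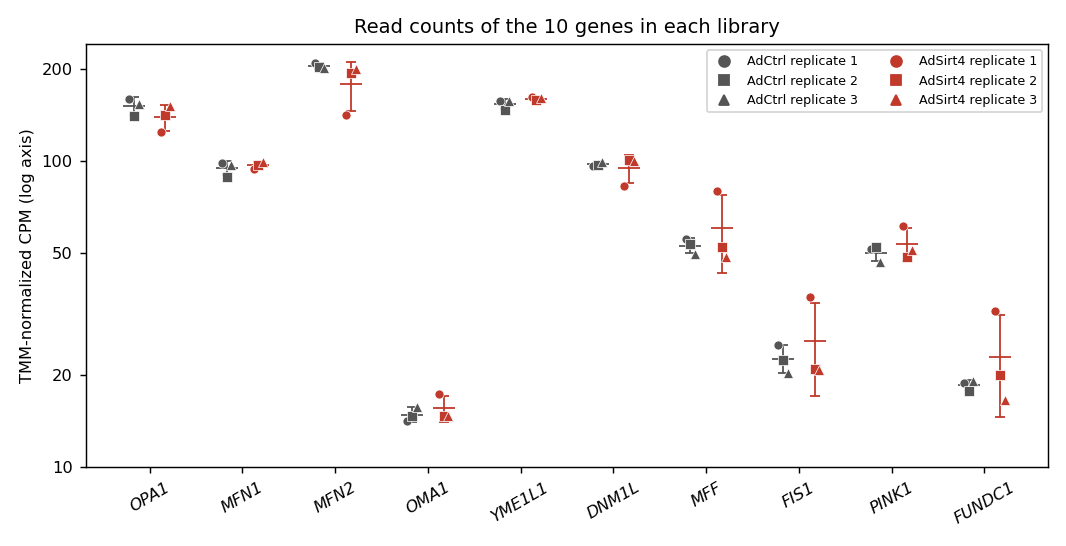
TMM-normalized CPM (log axis) of the 10 genes in each library, with the mean and SD (horizontal and vertical bars) of the 3 AdCtrl (grey) and 3 AdSirt4 (red) libraries. The AdSirt4 replicate 1 (red circle) lies apart from the other 5 libraries for MFN2, DNM1L and OPA1 (below) and for OMA1, MFF, FIS1, PINK1 and FUNDC1 (above). The remaining red points sit among or close to the grey ones.

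Among the fusion genes, MFN2, a mitofusin that also tethers mitochondria to the endoplasmic reticulum, had the largest shift. In replicates 1, 2 and 3 its level was 209.9, 203.1 and 201.7 CPM with AdCtrl, against 141.4, 193.9 and 200.6 CPM with AdSirt4, and this order of replicates is kept for all genes below. Every AdSirt4 library lay below every AdCtrl library, but only AdSirt4 replicate 1 was far below, and the highest AdSirt4 value missed the lowest AdCtrl value narrowly. MFN2 had a log2 fold change of -0.20 (SE 0.147, 95% interval -0.54 to 0.15, adjusted p = 0.745). Without AdSirt4 replicate 1 it was -0.06 (interval -0.17 to 0.05, adjusted p = 0.510).

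The paralog MFN1 was at 98.37, 89.10 and 97.30 CPM in AdCtrl and at 94.11, 97.34 and 99.36 CPM in AdSirt4. The groups overlapped, and MFN1 was the one gene of the 10 for which AdSirt4 replicate 1 fell within the range of the other 5 libraries. Its log2 fold change was 0.03 (SE 0.0885, interval -0.18 to 0.24, adjusted p = 0.912), and 0.05 (interval -0.08 to 0.17) without AdSirt4 replicate 1.

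OPA1, the inner membrane fusion GTPase mutated in dominant optic atrophy, was at 159.9, 140.3 and 154.3 CPM in AdCtrl and at 124.4, 142.0 and 151.5 CPM in AdSirt4. The groups overlapped, with AdSirt4 replicate 1 the lowest of all libraries. OPA1 had a log2 fold change of -0.12 (SE 0.112, interval -0.38 to 0.14, adjusted p = 0.776) and moved to -0.05 (interval -0.19 to 0.09) without that library.

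The proteases that cut OPA1 differed little between the groups. OMA1, the stress-activated protease, was at 14.12, 14.68 and 15.80 CPM in AdCtrl and at 17.31, 14.75 and 14.72 CPM in AdSirt4. The groups overlapped, and the log2 fold change of OMA1 was 0.07 (SE 0.110, interval -0.19 to 0.33, adjusted p = 0.853), and -0.02 (interval -0.19 to 0.16) without AdSirt4 replicate 1, the highest library. YME1L1, the ATP-dependent protease that cuts OPA1 under basal conditions, was at 157.2, 147.5 and 157.4 CPM in AdCtrl and at 161.8, 158.2 and 160.4 CPM in AdSirt4. All AdSirt4 values of YME1L1 lay above all AdCtrl values, but by less than 1 CPM at the nearest pair. Its log2 fold change was 0.06 (SE 0.0865, interval -0.15 to 0.26, adjusted p = 0.845), and 0.04 (interval -0.07 to 0.16) without AdSirt4 replicate 1.

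Among the fission genes, DNM1L, the dynamin-like GTPase that constricts the outer membrane, was at 96.47, 97.33 and 99.44 CPM in AdCtrl and at 83.21, 101.3 and 100.2 CPM in AdSirt4. Here AdSirt4 replicate 1 was the lowest library and the other AdSirt4 libraries were the highest, so that the sign of the difference rested on 1 library. The log2 fold change of DNM1L was -0.04 (SE 0.106, interval -0.29 to 0.21, adjusted p = 0.899) with all libraries and 0.04 (interval -0.07 to 0.15, adjusted p = 0.675) without AdSirt4 replicate 1.

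MFF, the main receptor for DNM1L on mitochondria, was at 55.87, 53.50 and 49.77 CPM in AdCtrl and at 80.13, 52.45 and 48.53 CPM in AdSirt4. FIS1, a small tail-anchored protein of the outer membrane with a debated part in fission, was at 25.12, 22.49 and 20.37 CPM in AdCtrl and at 35.88, 20.90 and 20.76 CPM in AdSirt4. For both genes AdSirt4 replicate 1 was the highest library and the other AdSirt4 libraries lay within or below the AdCtrl range. For MFF the log2 fold change was 0.19 (SE 0.194, interval -0.27 to 0.64, adjusted p = 0.790) and for FIS1 it was 0.19 (SE 0.229, interval -0.36 to 0.73, adjusted p = 0.813). Without AdSirt4 replicate 1 both values turned below 0, to -0.08 for MFF (interval -0.22 to 0.07) and -0.13 for FIS1 (interval -0.32 to 0.07).

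Of the mitophagy genes, PINK1, the kinase that accumulates on depolarized mitochondria, was at 51.62, 52.42 and 46.81 CPM in AdCtrl and at 61.30, 48.81 and 51.25 CPM in AdSirt4. The groups overlapped, with AdSirt4 replicate 1 again the highest library. PINK1 had a log2 fold change of 0.10 (SE 0.116, interval -0.18 to 0.37, adjusted p = 0.810), and -0.01 (interval -0.15 to 0.13) without that library.

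FUNDC1, an outer membrane receptor that binds LC3 in hypoxia, had the largest fold change of the 10 genes and the widest interval. Its level was 18.89, 17.81 and 19.18 CPM in AdCtrl and 32.50, 19.96 and 16.54 CPM in AdSirt4. The AdSirt4 libraries held both the highest and the lowest value of FUNDC1. The log2 fold change was 0.30 (SE 0.240, interval -0.27 to 0.87, adjusted p = 0.758), and -0.03 (interval -0.23 to 0.16, adjusted p = 0.855) without AdSirt4 replicate 1. With AdSirt4 replicate 3 left out instead, FUNDC1 had the smallest unadjusted p that any of the 10 genes reached in any fit, 0.0541 (edgeR, adjusted p = 0.539).

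In CPM, 2 of the 10 genes had groups without overlap, MFN2 (lower in AdSirt4) and YME1L1 (higher). Among all tested genes 19.4% had such groups, so the share of the 10 genes was close to the background. The exact permutation test gave p = 0.1 for both, the smallest that 3 samples against 3 allow. FPKM, the length-scaled unit of the second deposited table, carries no TMM size correction, and in it both genes overlapped between the groups. The TMM factor was 0.939 for AdSirt4 replicate 1 and 1.01 to 1.02 for the other libraries.

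**Figure D2:**
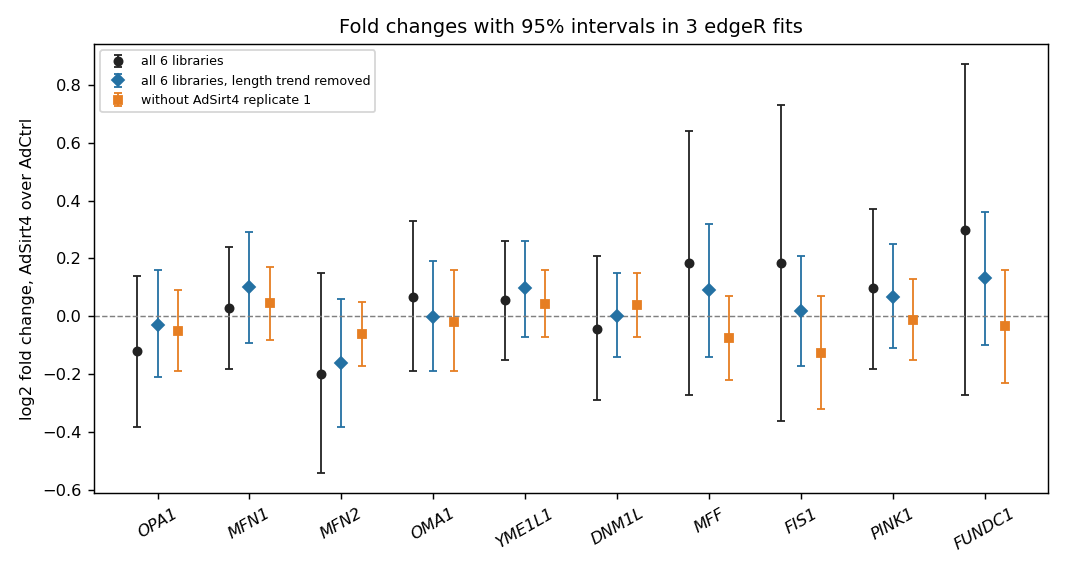
Log2 fold change of the 10 genes, AdSirt4 over AdCtrl, with 95% intervals (bars) from 3 edgeR fits: all 6 libraries (black), all 6 with each library's trend on transcript length removed (blue) and 5 libraries without AdSirt4 replicate 1 (orange). Every interval includes 0, and the orange intervals are the narrower ones beside the black, with bounds between -0.32 and 0.17.

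The intervals show what size of change these libraries leave possible. With all 6 libraries the 95% bounds of the 10 genes ran from 0.686-fold (MFN2) to 1.83-fold (FUNDC1). With the replicate number as a block the bounds were 0.666-fold (MFN2) and 1.68-fold (FUNDC1). Without AdSirt4 replicate 1, and without the block, they ran from 0.801-fold (FIS1) to 1.13-fold (MFN1), and the standard errors from 0.0492 to 0.0897 on the log2 scale. In that fit 0 of the 10 genes had an adjusted p under 0.05, while 1227 of 18287 tested genes did (6.71%), and 0 had an unadjusted p under 0.05, while 24.3% of tested genes did. Over all alternatives the adjusted p-values of the 10 genes lay between 0.407 and 0.999.

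The spread between replicates differed between the groups. In AdCtrl the coefficient of variation of CPM ran from 1.56% (DNM1L) to 10.5% (FIS1), with a median of 5.54% over the 10 genes, beside 6.64% over all tested genes. In AdSirt4 it ran from 1.12% (YME1L1) to 36.5% (FUNDC1), with a median of 11.5%, beside 18.7%. Without AdSirt4 replicate 1 the median was 1.93%, beside 5.30% for all tested genes.

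AdSirt4 replicate 1 lay above all other 5 libraries for 6 of the 10 genes (OMA1, YME1L1, MFF, FIS1, PINK1 and FUNDC1) and below them for 3 (OPA1, MFN2 and DNM1L). Among those other 5 libraries, which include both groups, the highest value was only 1.05 times (DNM1L) to 1.23 times (FIS1) the lowest. Against the mean of AdSirt4 replicates 2 and 3, replicate 1 held 1.78 times the CPM of FUNDC1, 1.72 times that of FIS1, 1.59 times that of MFF and 1.23 times that of PINK1. It held 0.848 times the CPM of OPA1, 0.826 times that of DNM1L and 0.717 times that of MFN2.

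These deviations followed transcript length. The length by which the counts had been divided for FPKM was 0.992 kb for FIS1, 1.20 kb for FUNDC1, 2.1 kb for MFF, 2.12 kb for OMA1 and 3.04 kb for PINK1, all higher in that library. It was 4.80 kb for YME1L1, 5.03 kb for MFN2, 5.09 kb for DNM1L, 5.96 kb for MFN1 and 7.20 kb for OPA1, of which YME1L1 alone was above the other libraries. Across the 10 genes the log2 deviation and the length had a Pearson r of -0.914 and a Spearman rho of -0.867. Across all 15894 genes with a length r was -0.644 and rho -0.669. Genes of 1 library share its preparation and depth and are not independent replicates, so these coefficients describe that library. In AdCtrl, each replicate against the others gave an r between -0.353 and 0.409 over the same 10 genes.

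**Figure D3:**
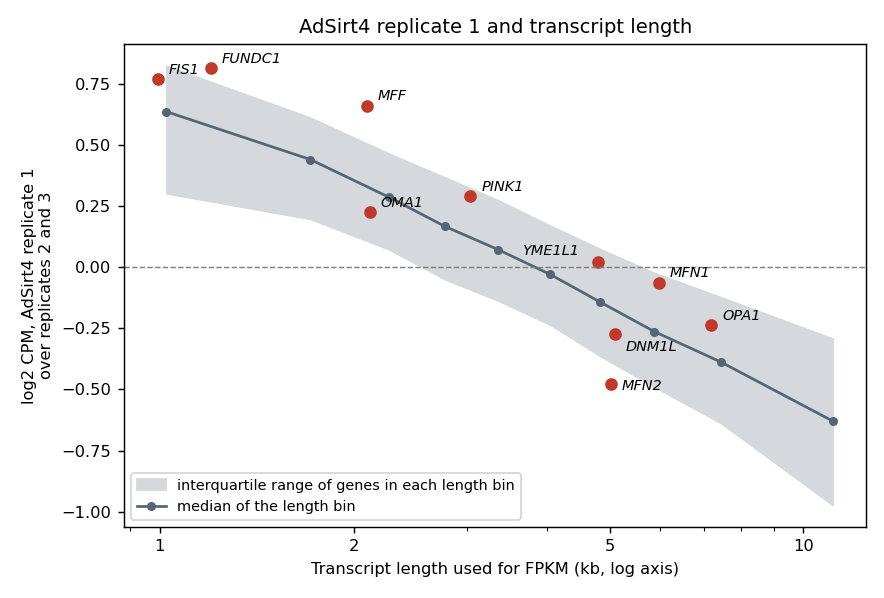
Log2 CPM (with a small fixed constant added) of AdSirt4 replicate 1 over the mean of AdSirt4 replicates 2 and 3, against the transcript length in kb (log axis). The 10 genes are red. All genes in each of 10 equal bins of length are shown by their median (line) and interquartile range (grey band, drawn straight between bin medians). The median falls from 0.637 in the shortest to -0.629 in the longest bin, and 8 of the 10 genes lie within the interquartile range of their own bin, with MFF above and MFN2 below it.

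All genes were sorted by length into 10 equal bins. In AdSirt4 replicate 1, 8 of the 10 genes deviated within the interquartile range of their bin, MFF lay above it (0.661, beside 0.0730 to 0.464) and MFN2 below it (-0.479, beside -0.362 to 0.0747). With each library's trend on length removed, the log2 fold changes were 0.13 for FUNDC1, 0.10 for MFN1 and YME1L1, 0.09 for MFF, 0.07 for PINK1 and 0.02 for FIS1. They were -0.16 for MFN2 (interval -0.38 to 0.06) and -0.03 for OPA1, and 0.00 for OMA1 and DNM1L. The adjusted p-values in that fit lay between 0.486 and 0.999, 0 of the 10 genes passed beside 12 of all tested genes (0.0677%), and 0 had an unadjusted p under 0.05, beside 14.1%. The 95% bounds ran from 0.766-fold (MFN2) to 1.28-fold (FUNDC1).

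**Figure D4:**
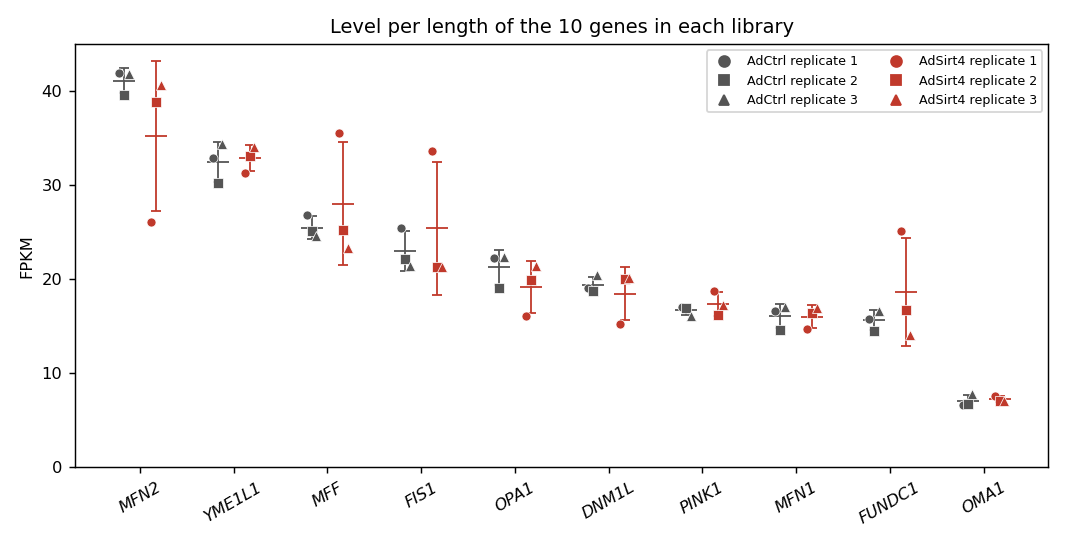
FPKM of the 10 genes in each library, in the order of their AdCtrl means, with the mean and SD (horizontal and vertical bars) of the 3 AdCtrl (grey) and 3 AdSirt4 (red) libraries. MFN2 is the highest and OMA1 the lowest gene in AdCtrl, and AdSirt4 replicate 1 (red circle) is low for MFN2 and high for MFF, FIS1 and FUNDC1.

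Levels were compared between genes per length, in FPKM as deposited, without the TMM correction. In AdCtrl, MFN2 was highest at 41.1 ± 1.35 FPKM (SD, n = 3), followed by YME1L1 at 32.5 ± 2.14 and MFF at 25.5 ± 1.19. FIS1 was at 23.0 ± 2.12, OPA1 at 21.3 ± 1.89 and DNM1L at 19.4 ± 0.897 FPKM. PINK1, MFN1 and FUNDC1 followed at 16.7 ± 0.518, 16.1 ± 1.28 and 15.7 ± 1.08 FPKM, and OMA1 was lowest at 7.07 ± 0.603. The AdCtrl values of neighbours in this order were separate between MFN2 and YME1L1, YME1L1 and MFF, DNM1L and PINK1, and FUNDC1 and OMA1. Neighbours from MFF over FIS1 and OPA1 to DNM1L overlapped, and so did those from PINK1 over MFN1 to FUNDC1. Among all tested genes MFN2 stood at the 91.7th percentile of FPKM and OMA1 at the 59.5th.

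In AdSirt4 the mean of MFN2 was 35.2 ± 7.97 FPKM, with 26.10 in replicate 1 and 38.89 and 40.73 in the others. MFF was at 35.52, 25.25 and 23.34 FPKM and FIS1 at 33.64, 21.27 and 21.36 FPKM. In replicate 1 alone MFF, FIS1 and YME1L1 (31.36 FPKM) thus all stood above MFN2. The other AdSirt4 libraries kept MFN2 first and OMA1 last, as in AdCtrl.

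Ratios between the genes within a library were computed after their values had been seen and are given without a test. The ratio of MFN2 to MFN1 was 2.53, 2.70 and 2.46 in AdCtrl and 1.78, 2.36 and 2.40 in AdSirt4, with every AdSirt4 value below every AdCtrl value. The ratio of MFN2 to DNM1L, 2 transcripts of nearly equal length, was 2.20, 2.11 and 2.05 in AdCtrl and 1.72, 1.94 and 2.03 in AdSirt4, and again the groups did not overlap. The gap between the nearest values was small in both. The ratio of YME1L1 to OMA1 was 4.93, 4.46 and 4.43 in AdCtrl and 4.14, 4.74 and 4.82 in AdSirt4, and overlapped. YME1L1 and DNM1L are also of similar length, and their ratio, 1.73, 1.61 and 1.69 in AdCtrl and 2.06, 1.65 and 1.70 in AdSirt4, overlapped. So did MFF over OMA1 and FUNDC1 over FIS1. Of the 6 ratios between single genes, 2 thus had groups without overlap, and no share over other gene pairs was computed. Both contain MFN2, which by itself was lower in every AdSirt4 library in CPM, so these ratios are not separate from that result. The summed FPKM of OPA1, MFN1 and MFN2 over that of DNM1L, MFF and FIS1 was 1.13, 1.11 and 1.22 in AdCtrl and 0.674, 1.13 and 1.22 in AdSirt4. This summed ratio was thus lower in AdSirt4 replicate 1 and within the AdCtrl range in the other AdSirt4 libraries. The transcripts of OPA1, MFN1 and MFN2 (7.2, 5.96 and 5.03 kb) are longer than those of MFF and FIS1 (2.1 and 0.992 kb). The counts of AdSirt4 replicate 1 moved with length, and whether its lower ratio went beyond that trend was not tested.

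The deposited tables also carry a trace of which isoforms were counted, because a count divided by its FPKM and by the library size gives the mean transcript length assigned to a gene. OPA1 and MFF are known for several splice forms, and the annotation holds 11 coding transcripts of OPA1, 9 of MFF and 8 of DNM1L. After each library had been scaled to the same median gene, the length of MFF lay between 2.088 and 2.123 kb over the 6 libraries, a range of 1.65%. For the other 9 genes the range was under 1%, with 0.310% for OPA1 and 0.142% for DNM1L. Between the groups these scaled lengths differed by at most 0.348% (YME1L1). The exact permutation test gave unadjusted p = 0.1, the smallest the design allows, for MFN1 (0.101%) and YME1L1, and p = 0.2 to 0.7 for the others. Without the scaling the largest difference was 0.458% (OPA1) and every exact p was 0.8 or 1.0. With library sizes after TMM the differences were 2.07% to 2.52%, nearly the same for all 10 genes, with an exact p of 0.7. Without AdCtrl replicate 3 the unscaled difference reached -1.67% (OPA1, exact p = 0.4). The tables hold no values per exon or intron, so splice forms of equal length could not be told apart.

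The 10 loci, on GRCh38.p14 in RefSeq, overlap few other counted genes. OPA1 lies at chr3:193593208-193697811 on the plus strand and holds 2 lncRNA genes, OPA1-AS1 with 0 to 10 counts per library and LOC102724808 with 0 to 4. OMA1, at chr1:58480719-58546726 on the minus strand, lies within DAB1, which had 1 to 5 counts. PINK1, at chr1:20633458-20651511 on the plus strand, overlaps PINK1-AS, and DNM1L (chr12:32679301-32745650) and MFF (chr2:227325251-227357836) each hold a pseudogene, none of them rows of the count table. Counting by strand is not stated, so reads of PINK1 and PINK1-AS cannot be told apart.

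To place the 10 genes among their pathways, 58 further genes were read from the same fit, in lists for fusion and OPA1 processing, fission, mitophagy, and the MICOS complex of the cristae with mitochondrial transport. All 68 genes could be tested. With all libraries 0 of the 68 had an adjusted p under 0.05, and 7 had an unadjusted p under 0.05, all higher in AdSirt4, beside 7.93% of all tested genes (785 higher and 621 lower). With the replicate number as a block, 3 of these 7 were left (BNIP3L, BNIP3 and MUL1). In the fit without AdSirt4 replicate 1, 19 of the 68 genes had an unadjusted p under 0.05, 10 higher and 9 lower, beside 24.3% of all tested genes. The 7 genes above were all among the 10 higher ones, with an unadjusted p from 3.91e-06 (BNIP3L) to 0.0490 (GDAP1, edgeR). The 9 lower genes were not among the 7. Of the 68 log2 fold changes 43 lay above 0 and 25 below, with a median of 0.04. Groups without overlap were found for 13 of the 68 genes (19.1%), 10 higher (14.7%) and 3 lower (4.41%), beside 9.66% and 9.77% of all tested genes. Their median in the fit without AdSirt4 replicate 1 was -0.02.

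The mitophagy list (25 genes, median log2 fold change 0.02) held 3 of these 7 genes, BNIP3L, BNIP3 and SQSTM1. BNIP3L, also called NIX, an outer membrane mitophagy receptor, was at 95, 99.57 and 93.7 CPM in AdCtrl and at 143.6, 134.1 and 128.6 CPM in AdSirt4. The groups of BNIP3L stood well apart in all 6 libraries. Its log2 fold change was 0.49 (SE 0.0908, unadjusted p = 0.000911, adjusted p = 0.404, edgeR). BNIP3L passed with DESeq2 (adjusted p = 4.18e-05) and in edgeR without AdSirt4 replicate 1 (log2 fold change 0.45, adjusted p = 0.00155), and over all alternatives its adjusted p ran from 4.18e-05 to 0.970.

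BNIP3, its paralog and like it a receptor known from hypoxia, was at 138.9, 131.8 and 117.6 CPM in AdCtrl and at 282.2, 193.2 and 163.1 CPM in AdSirt4. Every AdSirt4 value of BNIP3 exceeded every AdCtrl value, with the highest in replicate 1. BNIP3 had a log2 fold change of 0.72 (SE 0.206, adjusted p = 0.523), and 0.46 (adjusted p = 0.0179) without AdSirt4 replicate 1, with adjusted p-values from 0.0179 to 0.970 over the alternatives.

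SQSTM1, the autophagy adaptor p62, was at 373.0, 385.4 and 352.9 CPM in AdCtrl and at 522.4, 418.6 and 440.9 CPM in AdSirt4. Its groups did not overlap, and the log2 fold change of SQSTM1 was 0.31 (SE 0.123, adjusted p = 0.612), and 0.21 (adjusted p = 0.0480, within 0.0480 to 0.970 over the alternatives) without AdSirt4 replicate 1.

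**Figure D5:**
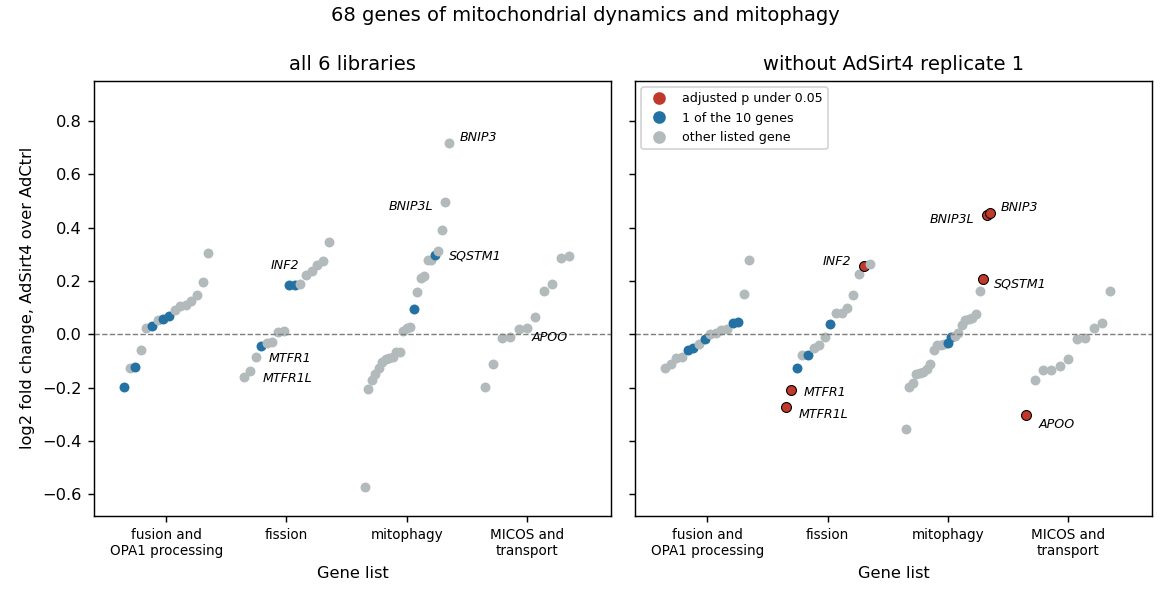
Log2 fold change, AdSirt4 over AdCtrl, of 68 genes in 4 lists with all 6 libraries (left) and without AdSirt4 replicate 1 (right), each list sorted by its value. The 10 genes of the report are blue and lie between -0.20 and 0.30 on the left and between -0.13 and 0.05 on the right, and the 7 genes with an adjusted p under 0.05 (red) appear in the right panel.

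The fission list (16 genes, median 0.10) held 3 genes with an unadjusted p under 0.05, all higher, beside 7.93% of all tested genes. Of these 3, MUL1 was left with the replicate block. Leaving out AdSirt4 replicate 1 gave 6, with 4 higher, these 3 among them, and 2 lower, beside 24.3% of all tested genes. With all libraries the 3 were the E3 ligase MUL1 (log2 fold change 0.26, adjusted p = 0.591), the formin INF2, which assembles actin at fission sites (0.24, adjusted p = 0.600), and GDAP1 (0.35, adjusted p = 0.616). INF2 was at 67.64, 63.69 and 64.24 CPM in AdCtrl and at 74.31, 75.51 and 80.65 CPM in AdSirt4. For INF2, MUL1 and GDAP1 all AdSirt4 libraries, replicate 1 included, were above AdCtrl in CPM, beside 9.66% of all tested genes. This was not so for DNM1L, MFF and FIS1, a contrast that was not tested. In FPKM, without the TMM correction, the groups of MUL1 and GDAP1 also stayed apart. Those of INF2 overlapped in FPKM, with 8.531 in AdSirt4 replicate 1 beside 8.654 in AdCtrl replicate 1.

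In the fusion list (16 genes, median 0.06) only PLD6, a mitochondrial phospholipase, had an unadjusted p under 0.05 (log2 fold change 0.31, adjusted p = 0.612), and with the replicate block none did. MIGA1 (-0.13, adjusted p = 0.738) and SLC25A46 (0.13, adjusted p = 0.739) came next. In the MICOS and transport list (11 genes, median 0.02) no gene did, and the smallest p-values belonged to CHCHD3, a MICOS subunit (0.19, adjusted p = 0.732), the Miro GTPase RHOT2 (0.16, adjusted p = 0.749) and the motor adaptor TRAK2 (-0.20, adjusted p = 0.776).

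Without AdSirt4 replicate 1, 7 of the 68 genes had an adjusted p under 0.05, beside 6.71% of all tested genes in that fit. BNIP3L, BNIP3, SQSTM1 and INF2 (log2 fold change 0.26, adjusted p = 0.0194, and 0.0194 to 0.970 over the alternatives) rose. The fission regulators MTFR1 (-0.21, adjusted p = 0.0423) and MTFR1L (-0.27, adjusted p = 0.0243) fell, and so did the MICOS subunit APOO (-0.30, adjusted p = 0.0330). With all libraries these 3 lower genes overlapped between the groups, and their highest adjusted p over the alternatives was 0.992, 0.970 and 0.989. None of the 10 genes was among the 7.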

How the data were processed

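The 6 samples of the series are HK2 cells with AdCtrl or AdSirt4, all stimulated with TGF-β1, and were grouped by their titles. The cell line label carries a running number, while every title names HK2. The authors deposited unnormalized whole-number counts per gene. Their second table gives no unit. It was read as deposited FPKM, since count over value gave the same length within 5% in all libraries for 11758 of 15894 genes. The submitters' processing notes name fastp 0.21.0, HISAT2 2.1.0, StringTie 2.1.5, DESeq2 1.30.1 and hg38, without their roles. Replicate libraries were not copies of each other.

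Counts were tested with edgeR 4.0.16 in R 4.3.3 (filterByExpr with a minimum count of 10, TMM, robust quasi-likelihood F-test, Benjamini-Hochberg adjustment). A count of 0 allows up to 3 counts, or 0.0350 to 0.0722 CPM per library, which covers counting error only. Alternatives were DESeq2 1.42.0, RLE scaling, all genes with at least 1 count, the replicate block, limma 3.58.1 on log2(FPKM + 1) or log2(FPKM + 0.1) and for a mean FPKM of at least 1, removal of each library's lowess trend on transcript length (span 0.3) with and without the block, and each library left out in turn. The scaling of transcript lengths to the same median gene was chosen after seeing the data. Deviations from the group means correlated across genes at 0.178, 0.159 and 0.176 between samples with the same replicate number and at -0.188 to 0.0298 between others. From the data alone, the numbers were taken to pair the samples in the fits with the replicate block. The main fit and the exact permutation tests did not use this pairing.

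The 10 genes and the gene lists were chosen with earlier results of these data known. Named beside the 10 genes and SIRT4 are the 3 genes with the smallest p in each of 4 lists, and the listed genes called without AdSirt4 replicate 1. The fits were tested on simulated data with known changes in 200 genes. Without a length trend edgeR recovered 200 of them, with 12 false calls. With a length trend in 1 library it recovered 166, with 0 false calls. With that trend removed it recovered 200, with 18 false calls. Recovery of changes as small as those estimated for the 10 genes was not tested. Tables and figures were made with Python 3.11.15, pandas 2.3.3, scipy 1.17.1 and matplotlib 3.10.9. Gene positions, overlaps and identifiers are from RefSeq and transcript numbers from GENCODE v29.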

Additional observations from a re-analysis of the deposited data

How the results depend on the processing

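The count of the 10 genes with an adjusted p under 0.05 was 0 in every alternative run, and so was their count with an unadjusted p under 0.05. The fold changes of the 10 genes kept their sign in 136 of 150 alternative values, none past the threshold. MFN1 changed sign with limma (-0.00434 for log2(FPKM + 1) with and without the FPKM minimum, -0.00457 for log2(FPKM + 0.1)). OMA1 did so with the length trend removed (-0.000227, with the replicate block -0.000317), and DNM1L likewise (0.00144 and 0.000306). Leaving out 1 library gave a range of -0.0142 to 0.0569 for MFN1 (negative without AdCtrl replicate 2), and these ranges, with the sign change without AdSirt4 replicate 1: -0.0177 to 0.113 for OMA1, -0.0868 to 0.0389 for DNM1L, -0.0759 to 0.320 for MFF, -0.127 to 0.324 for FIS1, -0.0119 to 0.167 for PINK1 and -0.0341 to 0.489 for FUNDC1.

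Of all tested genes, 2 passed in the main edgeR test, 206 with DESeq2, 5 with all genes of at least 1 count, 1 with the replicate block, 0, 1 and 5 with limma on log2(FPKM + 1), on log2(FPKM + 0.1) and with the FPKM minimum, 12 with the length trend removed, and 0 to 1227 with 1 library left out (1227 without AdSirt4 replicate 1). Of the 68 listed genes 1 passed with DESeq2 and 0 to 7 with 1 library left out (7 without AdSirt4 replicate 1). The log2 fold change of SIRT4 was no longer past the threshold with limma on log2(FPKM + 1) (4.88, adjusted p = 0.0847) or without AdCtrl replicate 1, 2 or 3 (adjusted p = 0.0559, 0.203 and 0.186), with a range of 6.10 to 6.59 over the libraries left out. Under the pairing by replicate block, 3 of the 7 listed genes with an unadjusted p under 0.05 were left, since PLD6, INF2, GDAP1 and SQSTM1 no longer met it, and no adjusted call on the 10 or the 68 genes changed. The causes of these shifts were not tested. With 3 samples a group and AdSirt4 replicate 1 apart, changes within the stated intervals were not excluded. Protein levels, cleavage and mitochondrial shape were not measured.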
